A study of Homo sapiens with 6 samples.

Results

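Complement is a cascade of blood and tissue proteins that marks surfaces for removal and can punch holes in membranes. The genes described here were 9 complement components and regulators chosen by symbol: C1R and C1S, C3, CFB, CFI, SERPING1, CD46, CD55 and CD59. Of these, 8 had a row among the 31369 genes of the count table, and all 8 passed the filter on low counts. SERPING1 was not analysed here.

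RNA was sequenced from HK-2, an established human kidney tubule cell line, in a control group (NC, genotype WT, n = 3) and a group with PPM1K overexpress as its genotype (OE, n = 3). PPM1K is a mitochondrial protein phosphatase that promotes the breakdown of branched-chain amino acids. Both groups were labelled day 10 and carried the treatment entry "Chronic kidney disease". Per the study's methods, OE cells received 2.5 μg of PPM1K plasmid with Lipofectamine, and no source used here says whether NC cells received an empty plasmid. The sample titles name a control and a PPM1K short hairpin instead. PPM1K counts were 37, 19 and 53 in NC and 3294, 3531 and 2919 in OE, which is the direction of the genotype entries and the opposite of the titles. The study's text speaks of biological replication but does not say whether the samples came from separate cultures, so p-values measure the spread between these samples, which may be technical.

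Total counts per sample ranged from 34635770 to 36116963 in NC and from 36033404 to 39850802 in OE. NC 2 stood apart, with a count above 0 in 26478 genes against 22094 to 22913 in the other samples. The epithelial markers KRT8, KRT18, KRT19, EPCAM and PAX8 were present in all samples. Of 10 kidney epithelial markers, 5 fell and 2 rose, where 23.7% and 24.9% of all tested genes did. The summed level of the 10 markers was 862 to 961 FPKM in NC and 743 to 805 FPKM in OE. FPKM, fragments per kilobase of transcript scaled to the mapped fragments of a sample, is a level per length that can be compared between genes. The 7 proximal tubule markers with an FPKM value stayed at or below 0.41 FPKM, and among them CUBN and AQP1 did not exceed 0.04 FPKM, while LRP2 had at most 1 count in a sample. Markers of the liver cells that make most circulating complement (ALB, APOA1, TTR, AHSG) did not exceed 0.11 FPKM, and leukocyte markers did not exceed 0.26 FPKM. Fibroblast markers summed to 2.94 to 3.10 FPKM in NC and 1.10 to 1.15 FPKM in OE. Both tested members, LUM and COL1A1, were lower, where 23.7% of all tested genes were. Endothelial markers summed to 0.56 to 0.71 FPKM in NC and 0.78 to 0.90 FPKM in OE. Of 3 tested members, 2 were higher, where 24.9% of all tested genes were. The part of these shifts in the complement results was not tested, and in such bulk samples fewer cells of a type and less RNA per cell cannot be told apart.

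C1r and C1s are the serine proteases that start the classical pathway once C1q has bound its target. Their action and that of the lectin pathway converge on C3, the most abundant complement protein of plasma, whose cleavage fragment C3b coats surfaces. Factor B, the product of CFB, joins C3b to form the convertase of the alternative pathway, and factor I, the product of CFI, cuts C3b into inactive fragments. CD46, CD55 and CD59 sit on the cell membrane and protect a cell from its own complement: CD46 is a cofactor for factor I, CD55 speeds the decay of convertases and CD59 blocks the assembly of the membrane pore. Kidney tubule cells are among the cells outside the liver known to transcribe C3 and factor B.

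In OE, the secreted components and factor I were lower, and the membrane regulators were split. C1R, C1S, C3, CFB, CFI and CD46 fell, CD55 rose, and CD59 did not pass the test. A gene passed at an adjusted p under 0.05 in the quasi-likelihood test of edgeR, after Benjamini-Hochberg correction for 15878 genes. So 6 of 8 members passed as lower, where 23.7% of all tested genes did, and 1 of 8 passed as higher, where 24.9% did. The median log2 fold change was -0.55 over the 8 members and -0.003 over all tested genes. CPM here is counts scaled to the library's total over the tested genes, after normalisation. By CPM, the samples of the groups were fully separated in 6 members that were lower, where 27.1% of all tested genes showed this. They were also separated in 1 member that was higher, where 28.2% of all tested genes were. Only CFB and CFI were also below a fold change of 0.5, where 3.79% of tested genes were called lower, and both had a mean count under 100. CFI, with 6 to 10 counts in the OE samples, entered the test through its NC counts.

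**Figure D1:**
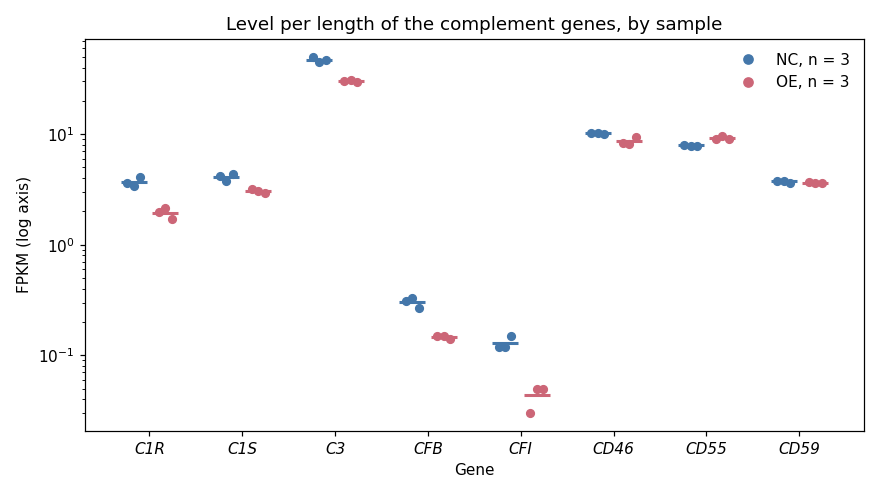
FPKM of the 8 complement genes in each sample (points; log axis), NC in blue and OE in red, 3 samples each, with the group mean as a bar. C3 stands above all other members in every sample (29.9 to 50.2 FPKM), and the groups overlap only in CD59. By the reads assigned to them, CFB and CFI lie below 0.34 FPKM.

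The order of the levels was much the same in both groups except among the membrane regulators. In NC, C3 led with 47.3 ± 2.73 FPKM (SD, n = 3), followed by CD46 with 10.2 ± 0.2 and CD55 with 7.93 ± 0.0872 FPKM. C1S (3.80 to 4.32 FPKM) and CD59 (3.64 to 3.79 FPKM) came next, and C1R (3.42 to 4.08 FPKM) overlapped both. CFB and CFI were lowest by the counts assigned to them. The genes annotated over them, described below, had means of 12.6 FPKM (XXbac-BPG116M5.17, over CFB) and 3.99 FPKM (AC004067.6, over CFI) in NC. The ranks of CFB and CFI thus depend on how shared reads were assigned. In OE, CD55 (8.99 to 9.65 FPKM) and CD46 (8.17 to 9.50 FPKM) overlapped, and CD59 stood above C1S and C1R.

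C1R and C1S are neighbours on chromosome 12, and their proteins form a tetramer within the C1 complex. C1R (ENSG00000159403.18, chr12:7080214-7092540, minus strand, GRCh38, 11 exons in its main transcript) had 3.62, 3.42 and 4.08 FPKM in NC 1, 2 and 3 and 1.98, 2.16 and 1.72 FPKM in OE 1, 2 and 3. All OE samples were below all NC samples, and the fold change was 0.52 (log2 fold change -0.94, SE 0.09, adjusted p = 4.0e-08, edgeR's quasi-likelihood test). C1S (ENSG00000182326.15, chr12:6988259-7071032, plus strand, 12 exons) had 4.21, 3.80 and 4.32 FPKM in NC and 3.22, 3.03 and 2.91 FPKM in OE. It was also lower in each OE sample, by less: the fold change was 0.733 (log2 fold change -0.45, SE 0.08, adjusted p = 5.0e-05, edgeR).

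By the counts assigned to each gene, C1R lost more than C1S, so that the ratio of the pair moved. The ratio of C1R to C1S, by FPKM, was 0.860, 0.900 and 0.944 in NC and 0.615, 0.713 and 0.591 in OE. Its mean (with SD, n = 3 per group) went from 0.901 ± 0.0423 to 0.640 ± 0.0646, a log2 difference of -0.50. The groups did not overlap, and the exact two-sided permutation p was 0.1, the smallest that 3 against 3 samples allow. C1RL, a related protease gene on the same strand, shares 25.2% of the bases of C1R's main transcript and did not pass (log2 fold change 0.13, adjusted p = 0.27, edgeR). With the counts of C1RL added to those of C1R, the log2 fold change was -0.52 (adjusted p = 1.9e-05, edgeR), nearer to the -0.45 of C1S. Only 13.5% of C1RL's exonic bases lie within C1R, so this sum also holds reads of C1RL alone. The size of the shift in the ratio thus depended on how these counts were assigned.

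C3 had the highest level of the 8 members in every sample. C3 (ENSG00000125730.17, chr19:6677704-6730562, minus strand, 41 exons) ranked 833 of 30896 genes by mean FPKM in NC and took 0.0415 to 0.0447% of all counts there, against 0.0264 to 0.0271% in OE. Its counts were 15549, 14383 and 15178 in NC and 10167, 10791 and 9523 in OE, while its level per length was 50.2, 44.8 and 47.0 FPKM in NC and 30.5, 30.8 and 29.9 FPKM in OE. The lowest NC sample thus lay well above the highest OE sample, and the spread within OE was small. The fold change was 0.634, a change of -36.6% (log2 fold change -0.66, SE 0.05, adjusted p = 1.1e-09, edgeR). It stayed between -0.69 and -0.62 under all alternatives run. Among 11770 genes whose mean count reached 100, the 5 whose log2 CPM followed C3 most closely over the 6 samples were ARFGAP1 (Pearson's r 0.9997), LOXL2 (0.9992), MFGE8 (0.9991), SPP1 (0.9988) and HSPB1 (0.9987). These points fall into 2 groups, so r mostly reflects the difference between NC and OE and is given as a description. All 5 fell, from LOXL2 with a log2 fold change of -0.38 (adjusted p = 1.4e-06, edgeR) to HSPB1 with -0.94 (adjusted p = 5.9e-11).

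A long noncoding transcript within C3 fell by far more than C3 itself. CTD-3128G10.7 (ENSG00000276980.1, chr19:6716386-6717742, the same strand as C3) had counts of 333, 315 and 339 in NC and 58, 76 and 52 in OE. Its log2 fold change was -2.50 (SE 0.14, adjusted p = 5.2e-12, edgeR), and its level was 6.32 ± 0.3 FPKM (SD, n = 3) in NC and 1.13 ± 0.174 FPKM in OE. All 1357 bases of its exon lie within exons of some annotated C3 transcript and none within the exons of C3's main transcript. For each C3 count there were 0.0219 ± 0.00046 of its counts in NC and 0.00607 ± 0.000852 in OE, a log2 difference of -1.86 (exact permutation p = 0.1, the smallest possible). Since it holds few of the counts, adding them moved C3 only from -0.66 to -0.68. GPR108, whose exons do not overlap those of C3, rose slightly, by 0.18 on the log2 scale (adjusted p = 0.046, edgeR).

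CFB had few counts in both groups and fewer in OE. CFB (ENSG00000243649.9, chr6:31945650-31952086, plus strand, 18 exons) had counts of 55, 61 and 49 in NC and 29, 30 and 26 in OE, or 0.31, 0.33 and 0.27 FPKM against 0.15, 0.15 and 0.14 FPKM. Every OE sample was below every NC sample, with a fold change of 0.485 (log2 fold change -1.04, SE 0.24, adjusted p = 0.0013, edgeR). Without NC 2, the log2 fold change was -0.96 (adjusted p = 0.0092), and CFB was no longer below a fold change of 0.5.

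The annotation holds a second gene over CFB that took most of the counts of this locus. XXbac-BPG116M5.17 (ENSG00000244255.5, protein-coding, chr6:31927698-31952048, same strand) shares 2249 bases with the main transcript of CFB, 90.8% of it, so that reads in these exons could be assigned to either gene. Its counts were 1915, 1958 and 2025 in NC and 1316, 1460 and 1357 in OE, a log2 fold change of -0.60 (SE 0.06, adjusted p = 2.0e-08, edgeR). It had 36.1 ± 4.74 counts for each CFB count in NC and 48.7 ± 3.41 in OE (exact permutation p = 0.1, the smallest possible). With all overlapping genes summed, which also takes in the few counts of C2 (2 to 7 per sample), the locus changed by -0.61 on the log2 scale (SE 0.06, adjusted p = 1.3e-08, edgeR) and a fold change of 0.654. XXbac-BPG116M5.17 has 55.3% of its exonic bases within CFB and holds most of these counts. The sum thus mainly follows that gene and may hold reads from outside CFB. CFB was lower in OE by its own counts, while its level and the size of its change depended on how shared reads were assigned.

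CFI, at the lower end of what was measured, showed the same layout. CFI (ENSG00000205403.14, chr4:109731008-109802150, minus strand, 13 exons) had counts of 21, 22 and 27 in NC and 6, 10 and 9 in OE, and its level was 0.03 to 0.15 FPKM in all samples. The groups did not overlap, with a log2 fold change of -1.56 (SE 0.38, adjusted p = 0.0019, edgeR). CFI entered the test through its NC counts and was removed when at least 10 counts were required in every sample. AC004067.6 (ENSG00000285330.1, protein-coding, chr4:109713916-109801999, same strand) shares 1562 bases, 79.0% of CFI's main transcript, and held 393, 363 and 337 counts in NC and 225, 186 and 193 in OE (log2 fold change -0.94, SE 0.12, adjusted p = 9.6e-07, edgeR). The sum of both changed by -0.98 on the log2 scale (SE 0.11, adjusted p = 3.3e-07, edgeR) and a fold change of 0.509. AC004067.6 has 65.5% of its exonic bases within CFI and holds most of these counts, so the sum mainly follows it. With overlapping genes summed, neither CFB nor CFI was below a fold change of 0.5.

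**Figure D2:**
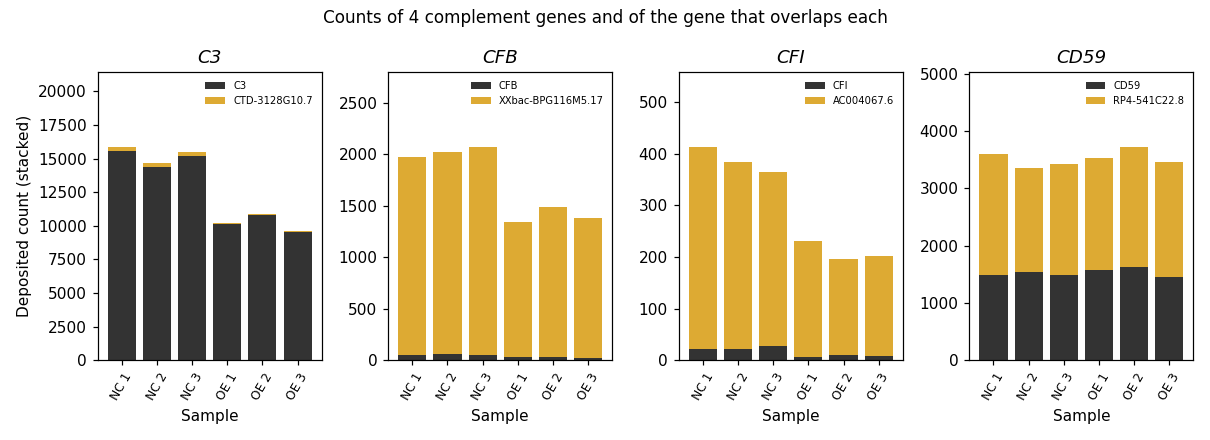
Deposited counts per sample of 4 complement genes (dark) stacked with those of the gene annotated over each (yellow), with a count axis from 0 in each panel. In CFB and CFI the overlapping gene holds nearly all of the counts and falls with the member, in C3 it holds few, and in CD59 neither gene moves.

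The membrane regulators, which cells carry to stop complement on their own surface, did not move together. CD46 (ENSG00000117335.20, chr1:207752037-207795513, plus strand, 13 exons) had 10.2, 10.3 and 9.93 FPKM in NC and 8.25, 8.17 and 9.50 FPKM in OE. OE 3 came close to the NC samples without reaching them, and the fold change was 0.839 (log2 fold change -0.25, SE 0.06, adjusted p = 0.00086, edgeR). MIR29B2CHG, on the opposite strand, shares 6.0% of CD46's main transcript and fell on 8 to 34 counts per sample (log2 fold change -1.02, adjusted p = 0.026, edgeR), and adding it left CD46 at -0.26.

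CD55 was the member that rose. CD55 (ENSG00000196352.16, chr1:207321519-207386804, plus strand, 10 exons) had 8.03, 7.87 and 7.89 FPKM in NC and 9.08, 9.65 and 8.99 FPKM in OE. Every OE sample was above every NC sample, with a fold change of 1.15 (log2 fold change 0.20, SE 0.05, adjusted p = 0.0047, edgeR). The increase stayed between 0.16 and 0.23 under all alternatives run. The ratio of CD55 to CD46, which also lies on chromosome 1, was 0.781 ± 0.0167 by FPKM in NC and 1.08 ± 0.119 in OE (SD, n = 3 each). The ratio of CD55 to C3 was 0.168 ± 0.00792 in NC and 0.304 ± 0.00853 in OE, so there was more of the convertase inhibitor's transcript for each C3 transcript. For both ratios the exact permutation p was 0.1, the smallest possible. CD55 was higher and CD46 and C3 were lower in every OE sample, so this p was fixed in advance and adds no support.

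CD59 (ENSG00000085063.17, chr11:33703010-33736479, minus strand, 4 exons) had 3.79, 3.75 and 3.64 FPKM in NC and 3.72, 3.63 and 3.58 FPKM in OE. The groups overlapped, and the log2 fold change was -0.05 (SE 0.06, adjusted p = 0.50, edgeR), with an exact permutation p of 0.2. RP4-541C22.8 (ENSG00000284969.1, protein-coding, same strand, chr11:33698261-33722467) has 66.0% of its exonic bases within CD59 and held 1819 to 2107 counts per sample. Its log2 fold change was -0.04 (adjusted p = 0.64, edgeR), and the sum of both also gave -0.04 (adjusted p = 0.50).

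**Figure D3:**
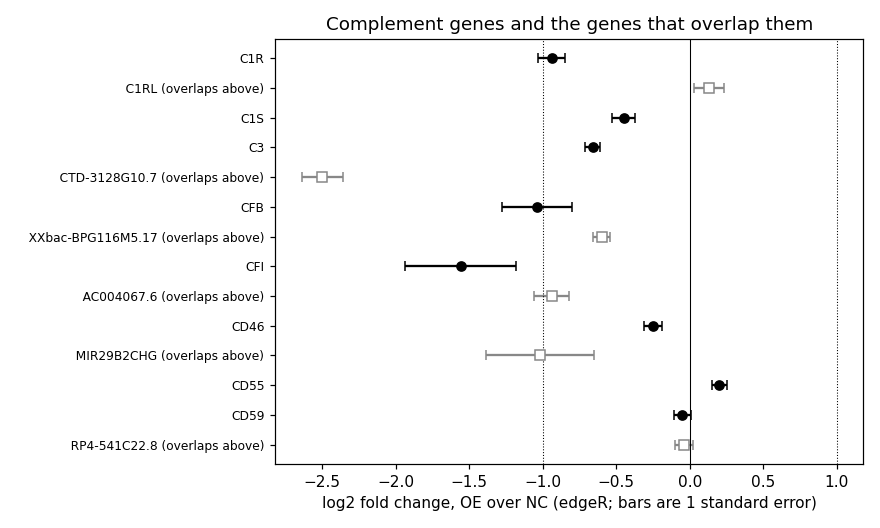
Log2 fold change of OE over NC for the 8 complement genes (black circles) and for the genes that overlap them and share exonic bases (open squares). Bars are 1 standard error derived from edgeR's F statistic, and dotted lines mark fold changes of 0.5 and 2. C1R, C1S, C3, CFB, CFI and CD46 lie left of 0, CD55 right of it, and CTD-3128G10.7 within C3 lies farthest left at -2.50.

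CD55 and CD59 are held in the membrane by a glycosylphosphatidylinositol (GPI) anchor, while CD46 spans the membrane. Of 28 tested genes for making or attaching the anchor, 4 fell and 7 rose, where 23.7% and 24.9% of all tested genes did. The other 17 did not pass, and none of the 28 was past a fold change of 2 or 0.5. Those with the smallest adjusted p were PIGK, a subunit of the transamidase that attaches the anchor (log2 fold change 0.47, adjusted p = 6.0e-06, edgeR), and PIGQ (0.57, adjusted p = 4.3e-05) and PIGW (0.51, adjusted p = 2.1e-04), which act early in its synthesis. Lower genes included DPM3, a subunit of the mannose donor synthase (-0.74, adjusted p = 8.8e-04), and PGAP3, which remodels the anchor's lipid (-0.63, adjusted p = 0.0022). The median log2 fold change of the list was 0, against -0.003 for all tested genes.

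Other genes of the complement system were mostly at low levels. Of 53 listed, 35 had a row and 13 were tested. The 22 others had no count above 13 in any sample. Of the 13, 2 fell and 5 rose, where 23.7% and 24.9% of all tested genes did. None of the 13 was past a fold change of 2 or 0.5. Their median log2 fold change was 0.29, opposite in sign to that of the 8 members.

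Among the genes that fell was clusterin (CLU), a secreted protein that binds the forming membrane pore. It had 19.49, 17.46 and 18.86 FPKM in NC and 12.46, 12.79 and 12.95 FPKM in OE, with no overlap (log2 fold change -0.57, adjusted p = 9.1e-09, edgeR).

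The genes that rose were of several kinds. C1QBP, a mitochondrial protein that can bind C1q, had 73.0 ± 2.5 FPKM in NC and 90.6 ± 5.52 FPKM in OE (SD, n = 3 each), a log2 fold change of 0.29 (adjusted p = 1.2e-04, edgeR). C5, the precursor of the C5a peptide, had 0.54, 0.38 and 0.41 FPKM in NC and 0.70, 0.76 and 0.75 FPKM in OE (log2 fold change 0.71, adjusted p = 3.8e-04, edgeR), and C5AR1, the receptor of C5a, rose by a like amount (0.70, adjusted p = 0.0017). ITGB2, the shared beta chain of the integrin complement receptors, rose from 0.903 ± 0.153 to 1.79 ± 0.123 FPKM (log2 fold change 0.97, adjusted p = 2.9e-07, edgeR), while its partner chains ITGAM (0.43, adjusted p = 0.35) and ITGAX (-0.11, adjusted p = 0.70) did not pass and stayed at or below 0.44 FPKM. THBD, a cell-surface protein that aids the inactivation of C3b by factor I, rose as well (log2 fold change 0.77, adjusted p = 9.9e-05, edgeR). C1RL, described above, had 1.95 ± 0.184 FPKM in NC and 2.16 ± 0.117 FPKM in OE.

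**Figure D4:**
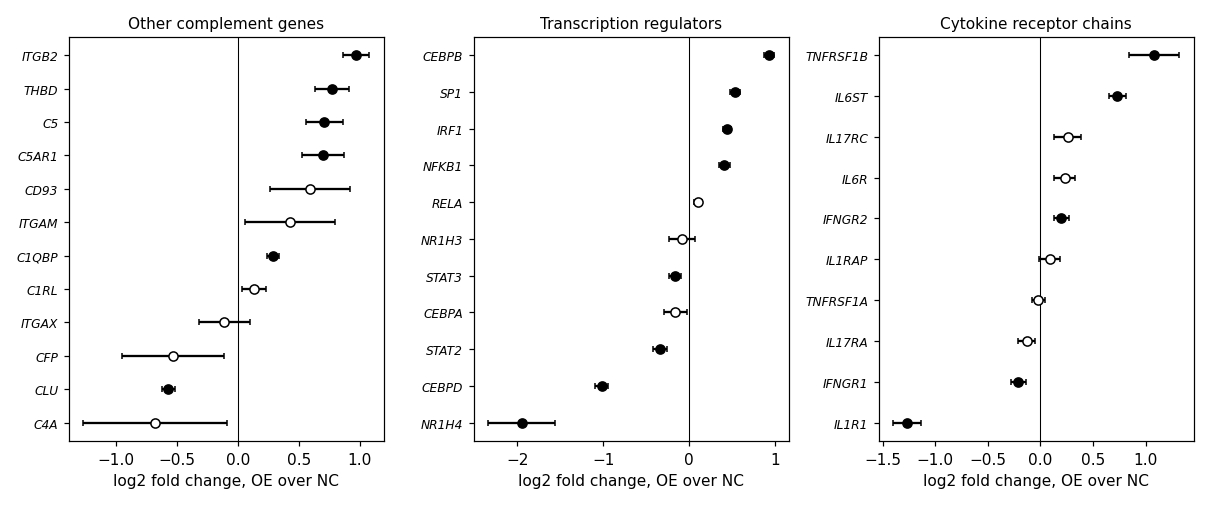
Log2 fold change of OE over NC with bars of 1 standard error (edgeR) for the reported tested genes of 3 lists: other complement genes, transcription regulators known at complement gene promoters, and cytokine receptor chains. Filled points passed at an adjusted p under 0.05, and every list holds genes on both sides of 0, from NR1H4 at -1.95 to TNFRSF1B at 1.08. NR1H4 had only 7 to 73 counts per sample.

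Complement genes are known to be induced by interferon gamma, interleukin-1, interleukin-6 and tumor necrosis factor, through STAT, C/EBP and NF-kB factors. Of 12 tested transcription regulators, 5 fell and 4 rose, where 23.7% and 24.9% of all tested genes did. The median log2 fold change of the 12 was -0.12. The C/EBP genes went in opposite directions: CEBPD fell from 24.1 ± 2.56 to 12.1 ± 0.693 FPKM (log2 fold change -1.02, adjusted p = 2.9e-09, edgeR), and CEBPB rose from 28.2 ± 2.32 to 54.3 ± 1.63 FPKM (0.93, adjusted p = 3.1e-11). NR1H4, a bile acid receptor, fell at a low level (-1.95, adjusted p = 2.7e-04, edgeR). Its counts were 28, 43 and 73 in NC and 16, 7 and 16 in OE, so it entered the test partly through its NC counts. STAT2 (-0.34, adjusted p = 0.0011, edgeR) fell by less. SP1 (0.53, adjusted p = 6.5e-07), IRF1 (0.44, adjusted p = 6.7e-07) and NFKB1 (0.41, adjusted p = 1.0e-05) rose. Of 10 cytokine receptor chains, 2 fell and 3 rose, beside the same shares of all tested genes. IL1R1, the interleukin-1 receptor, fell from 0.787 ± 0.0153 to 0.330 ± 0.0173 FPKM (-1.27, adjusted p = 9.2e-08, edgeR), and IFNGR1 fell slightly (-0.21, adjusted p = 0.019). IL6ST (0.73, adjusted p = 1.2e-07), TNFRSF1B (1.08, adjusted p = 9.5e-04) and IFNGR2 (0.20, adjusted p = 0.019) rose.

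The promoter windows of the members were searched for letters of these factors' motifs, so that members with different directions could be set side by side. Windows of 300 bases, from 250 before to 50 after a transcription start, came from RefSeq (GRCh38.p14) and were given for 6 of the 8 members. C3 and C1S had no entry. On both strands, the STAT motif TTCNNNGAA was in 7.66% of all 35116 windows, the interferon response core (GAAA, any 2 bases and GAAA) in 3.57%, the C/EBP motif TTGCNNAA in 10.5% and the NF-kB consensus in 11.3%. The single window of CFB held 3 of these motifs, which did not overlap each other, and the 2 windows of C1R held a STAT and 2 C/EBP matches. CD59, which did not pass the test, held 1 STAT match, shared by 2 overlapping windows of its 4, and 2 C/EBP matches in another. The windows of CFI, CD46 and CD55 held no match to any of the 4 motifs. A match is a description of the letters and not a site shown to be bound. The stretches of CFB, C1R and CD59 below are on the strand of the gene, 5′ to 3′, with the matching letters in capitals.
CFB, STAT motif, chr6:31945992-31946021: ccgcttggatgTTCCGGGAAagtgatgtgg
CFB, interferon response core (matched on the other strand), chr6:31945945-31945974: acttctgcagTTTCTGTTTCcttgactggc
CFB, NF-kB consensus, chr6:31945973-31946002: gcagctcagcGGGGCCCTCCcgcttggatg
C1R, STAT motif, chr12:7091961-7091990: agccagtcctaTTCCTGGAAggggagggga
C1R, C/EBP motif, chr12:7092042-7092071: cccagacgctcTTGCTGAAcctgtgggagc
C1R, C/EBP motif (matched on the other strand), chr12:7092533-7092562: agatcttttgtTTATGCAAatagttcattc
CD59, STAT motif, chr11:33736589-33736618: gccacccggccTTCTCAGAAcctgggccag
CD59, C/EBP motif, chr11:33722984-33723013: aacttacaaagTTGCTCAAtacctctcttc
CD59, C/EBP motif (matched on the other strand), chr11:33723122-33723151: atgctttgtacTTAGGCAAgttcaaaacct

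**Figure D5:**
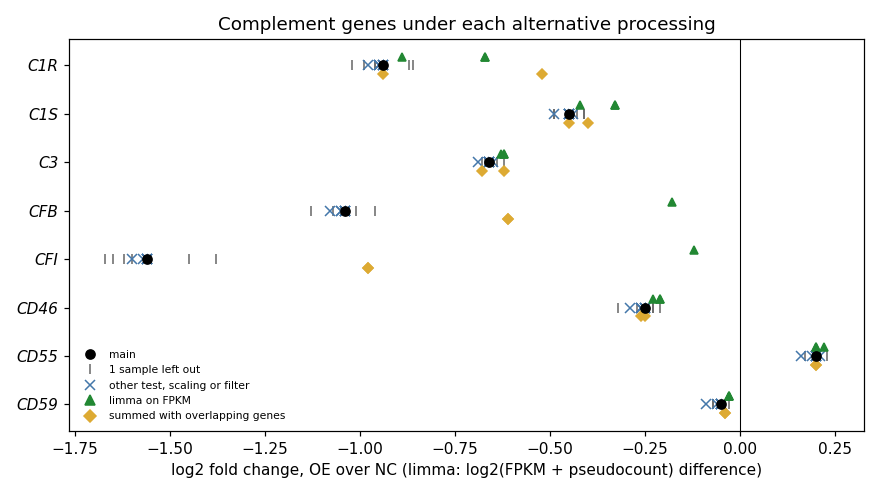
Log2 fold change of OE over NC of each complement gene (black) and under every alternative: 1 sample left out, other tests, scalings and filters, limma on log2(FPKM + pseudocount), and counts summed with overlapping genes. No gene crosses 0, and the values of CFB and CFI spread widest, from -1.13 to -0.18 and from -1.67 to -0.12. Their values nearest 0 come from limma on log2(FPKM + 1) without a filter. There the pseudocount of 1 exceeds the FPKM of both genes and shrinks the difference.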

How the data were processed

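Total RNA of 6 HK-2 samples was made into stranded mRNA libraries and sequenced as paired ends. Per the study's methods, the authors discarded reads rich in N, removed adaptors and poor bases (FASTX-Toolkit), mapped the remainder to GRCh38 (HISAT2) and used only uniquely mapped reads. The deposited values of 31369 genes are raw counts. The deposited FPKM values of 30896 genes were calculated by the authors from the same reads and are given to 2 decimals. The annotation, the counter and its strand setting are not given in the sources used here, so counts of overlapping genes are uncertain.

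Columns named NC and OE were assigned to the genotype groups of the labels. Counts were filtered with filterByExpr, TMM-normalised and fitted with edgeR 4.0.16 (glmQLFit, glmQLFTest; R 4.3.3), with Benjamini-Hochberg adjustment over 15878 genes. A gene passed at an adjusted p under 0.05 and was called with a fold change above 2 or below 0.5 as well. Standard errors (SE) were derived from this test, as the absolute log2 fold change divided by the square root of the F statistic. The scripts were tested on simulated data. Single values were compared by an exact two-sided permutation test. Locations, exons and overlaps came from GENCODE release 44 (GRCh38), which held 99.8% of the gene identifiers without version numbers. The members, lists and tests were chosen with earlier results of these data known. Named were all members, PPM1K, every gene of the table that overlaps a member, other complement genes that passed or had a mean of at least 1 FPKM, up to 4 passing genes in each direction of the other lists, and the 5 genes most like C3; LPCAT3 within C1S (log2 fold change -0.20, adjusted p = 0.20) and 2 pseudogenes within members, CDCA4P4 and RP3-461F17.1 (0 to 3 counts per sample), share no exonic base with them. Some listed genes enter only the counts, medians and sums of their lists and are not reported here by name. Alternatives were DESeq2 1.42.0, limma 3.58.1 on log2(FPKM + 1) or log2(FPKM + 0.1), other scalings and filters, a test against a fold change of 2, a replicate block, each sample left out, and counts summed with overlapping genes.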

Additional observations from a re-analysis of the deposited data

How the results depend on the processing

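No member changed direction under any of the alternatives run. The counts of 6 members passing as lower and 1 as higher became 0 and 0 in the test against a fold change of 2. The other complement genes and the GPI anchor genes also went to 0 lower and 0 higher. Only 0.743% of all tested genes passed as lower and 0.428% as higher in that test. The 2 members called lower, CFB and CFI, became 1 with at least 10 counts required in every sample, which removed CFI, and 0 in that test, in limma on log2(FPKM + 1) and log2(FPKM + 0.1), where only 6 members with at least 1 FPKM were tested, in limma without a filter, and when summed with every overlapping gene. They also became 0 when summed only with same-strand partners over 50% within the member, an alternative chosen after seeing the data. Leaving out 1 sample gave 1 to 3 members called lower. Without NC replicate 2 only CFI was called, and without OE replicate 2 C1R was called too. In filtered limma 1 other complement gene passed as lower with either pseudocount (6 tested), against 2, where 22.9% of all tested genes did. In limma without a filter 1 GPI anchor gene passed as lower, against 4, where 8.09% of all tested genes did. CD46 did not pass in limma without a filter (-0.21, adjusted p = 0.055). Upper quartile scaling moved the median of all genes to -0.041. With a replicate block, 6 members passed as lower, 1 as higher and 2 were called, as without it. Of all tested genes, 21.8% passed as lower and 22.7% as higher with the block. Samples with the same number did not deviate together (correlations -0.00319, -0.0663 and -0.0542). CFB and CFI rest on under 100 counts per sample, where counting error is large. Counting error and the unknown strand setting limit all values of overlapping genes.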
